A study of Homo sapiens with 6 samples.

Results

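The enzymes that add sulfate to, or remove it from, heparan sulfate, chondroitin sulfate and related glycans were examined in MIA PaCa-2, a cell line established from a human pancreatic carcinoma. They were proposed with the comparison below already known. Membership was then set by gene symbol, as all genes named CHST, NDST or GAL3ST with a number, the HS2ST, HS3ST and HS6ST genes, UST, SULF1 and SULF2. This gave 37 of the 35993 genes in the table. Of these, 17 act on heparan sulfate and 8 on chondroitin or dermatan sulfate, while the symbol patterns also took in 12 enzymes of keratan sulfate, glycoprotein and glycolipid sulfation. RNA-seq was performed on 3 untreated and 3 rhCYGB libraries, the latter after 48 h with 4 µM of rhCYGB, a His-tagged recombinant human cytoglobin purified from E. coli. According to the labels, cells in 24-well plates were moved from medium with FBS and horse serum to DMEM with 1% FBS on the day before treatment, and no vehicle is named for the untreated group, which the labels call Control. The labels do not say whether the libraries of a group came from separate cultures, so the p-values measure only the spread between these libraries, which may be technical.

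Heparan sulfate and chondroitin sulfate are linear sugar chains built in the Golgi on core proteins such as syndecans, glypicans and agrin. Sulfotransferases take sulfate from the donor PAPS and place it at defined positions along the chain. On heparan sulfate, N-sulfation comes first, followed by epimerization and sulfation at the 2-O, 6-O and, more rarely, 3-O position, and the secreted SULF enzymes later trim 6-O sulfates outside the cell. On chondroitin sulfate, the choice between 4-O and 6-O sulfation of N-acetylgalactosamine separates the main chain types. The pattern of sulfates sets which growth factors, chemokines and matrix proteins the chains hold.

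Total read counts on genes were 34838399 to 42271299 per library. Keratins and vimentin marked the line as a carcinoma cell with mesenchymal features, with KRT8 at a mean of 1075 FPKM and VIM at 3468 FPKM in untreated libraries. EPCAM had 0 counts in all 6 libraries and CDH1 at most 2. The markers of leukocytes (PTPRC) and endothelium (PECAM1) were at 0 counts, as were the fibroblast marker DCN and CYGB itself, while of the other mesenchymal markers COL1A1 had at most 10 counts, PDGFRB at most 5, ACTA2 stood at 2.97 and 2.49 FPKM in untreated and rhCYGB libraries, and COL1A2 at 26.1 and 1.12 FPKM. Their part in the results was not tested. In bulk RNA, fewer cells of a kind and less RNA per cell cannot be told apart.

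Counts are given as CPM, reads scaled to a common library size. Levels of different genes are compared only as FPKM, which also divides by transcript length. A gene was called when its adjusted p from edgeR's quasi-likelihood test was under 0.05 and its fold change 2 or more. Since the sulfation genes were proposed with this comparison already known, their differences are a description of the 6 libraries and no p-value is given for them.

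Of the 37 genes, 21 had enough counts to be tested. Another 10 had 0 counts in every library, namely NDST4, HS6ST2, HS3ST1, HS3ST2, HS3ST4, HS3ST5, HS3ST6, SULF1, CHST8 and GAL3ST3. A count of 0 allows up to 0.0902 CPM in the shallowest library, counting error only. The remaining 6 genes, CHST6, NDST3, GAL3ST1, GAL3ST4, CHST9 and HS6ST3, never exceeded 16 counts. Among the 21 tested genes, 10 were called (47.6%), 5 higher and 5 lower after rhCYGB. Over all 14728 genes tested, 27.1% were called, 12.4% higher and 14.7% lower, or 1833 against 2165 genes. That balance rests on the scaling, since upper-quartile factors gave 1448 higher and 2633 lower and total counts gave 1395 and 2719, while the sulfation genes stayed at 5 and 5. With the adjusted p alone, 8 of the 21 were higher and 11 lower, where 77.6% of all genes tested passed, 39.0% higher and 38.6% lower. In 7 genes every rhCYGB library lay above every untreated library, in 11 every one lay below, and in 3 the groups overlapped, against 39.8% above and 39.7% below over all genes tested. On the log2 scale the median difference was -0.49 over the 21 genes and 0.00 over all genes tested. CHST4 and CHST5, counted among the 5 lower genes, passed the filter through the untreated group. With at least 10 counts in every library they were not tested, and 8 of 19 sulfation genes were called, 5 higher and 3 lower. Of all 13396 genes then tested, 3263 were called. The median was then -0.17 over the 19 genes and 0.01 over all genes tested.

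**Figure D1:**
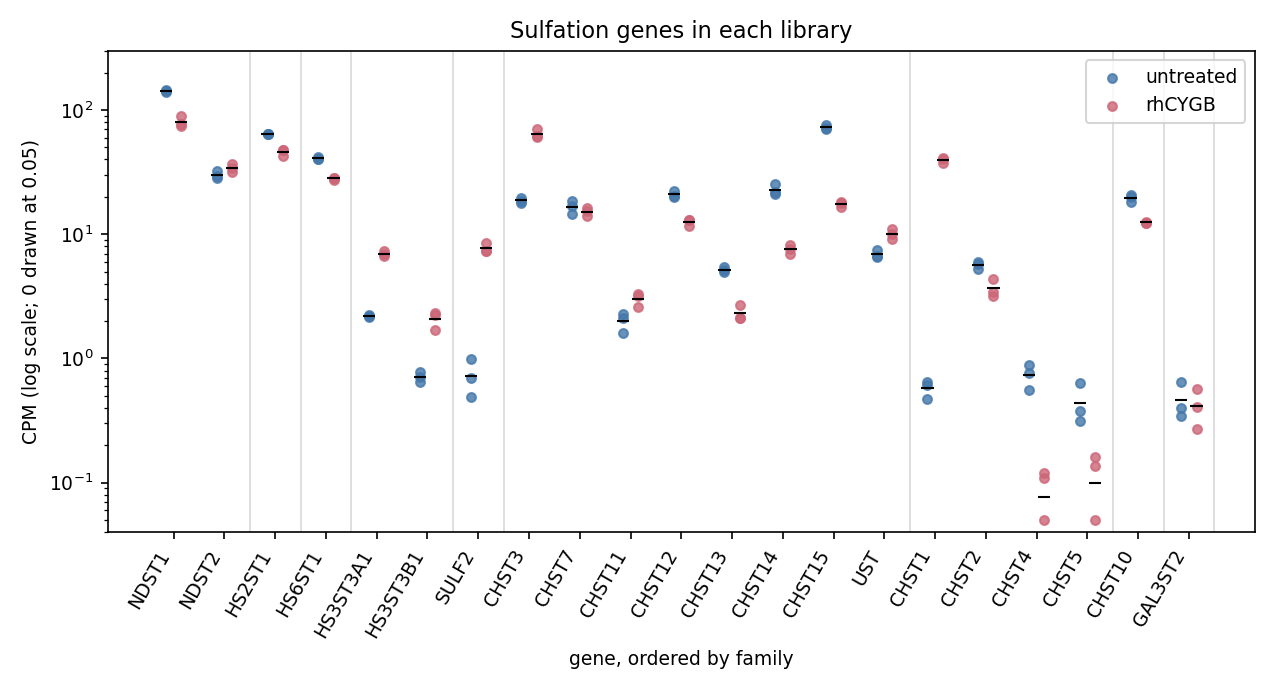
CPM (log scale) of the 21 tested sulfation genes in each of the 6 libraries, ordered by family, with points for libraries and black lines for group means, and with 0 CPM drawn at 0.05. CHST1, SULF2, CHST3, HS3ST3A1 and HS3ST3B1 lie higher in all 3 rhCYGB libraries, and CHST15, CHST14, CHST13, CHST4 and CHST5 lower.

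The upstream sequences of 5 genes on which the comparison turns are shown first. RefSeq promoter windows in GRCh38.p14 were found for 33 of the 37 genes. CHST1, CHST5, SULF1 and GAL3ST3 had none. Each line gives the 250 bases before an annotated gene start, 5′ to 3′ on the gene's strand. SULF2 is shown from both of its first starts because its counts were assigned to transcripts with different starts in each group. HS3ST3A1 and HS3ST3B1 are shown as paralogs that differed alike, CHST3 as the chondroitin gene with the largest increase and CHST15 as the one with the largest decrease. Capitals mark the GC box, spelled GGGCGG. They also mark the CCAAT box, which is spelled as it is named. The last motif in capitals is the cyclic AMP response element, spelled TGACGTCA. All were searched on both strands, and in HS3ST3A1 the CCAAT box overlaps a GC box.
SULF2, first start (chr20:47786628-47786877, minus strand): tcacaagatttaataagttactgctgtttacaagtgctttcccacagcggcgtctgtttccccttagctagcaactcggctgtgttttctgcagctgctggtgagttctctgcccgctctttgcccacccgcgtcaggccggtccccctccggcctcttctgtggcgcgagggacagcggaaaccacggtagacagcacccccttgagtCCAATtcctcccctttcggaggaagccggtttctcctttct
SULF2, second start (chr20:47786097-47786346, minus strand): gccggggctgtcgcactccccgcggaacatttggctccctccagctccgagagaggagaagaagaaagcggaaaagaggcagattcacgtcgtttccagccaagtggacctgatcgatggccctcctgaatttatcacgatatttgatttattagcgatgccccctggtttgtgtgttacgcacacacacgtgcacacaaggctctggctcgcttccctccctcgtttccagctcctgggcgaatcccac
CHST3, first start (chr10:71964145-71964394, plus strand): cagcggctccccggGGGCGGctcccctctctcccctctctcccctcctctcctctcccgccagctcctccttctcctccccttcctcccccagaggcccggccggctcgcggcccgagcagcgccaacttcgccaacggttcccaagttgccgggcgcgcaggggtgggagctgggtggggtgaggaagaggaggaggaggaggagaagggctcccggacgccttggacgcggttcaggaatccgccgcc
HS3ST3A1 (chr17:13601930-13602179, minus strand): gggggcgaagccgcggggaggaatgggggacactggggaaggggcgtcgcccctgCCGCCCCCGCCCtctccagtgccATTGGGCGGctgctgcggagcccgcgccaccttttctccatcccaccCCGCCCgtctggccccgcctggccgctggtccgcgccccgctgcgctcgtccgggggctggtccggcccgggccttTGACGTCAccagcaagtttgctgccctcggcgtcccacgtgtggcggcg
HS3ST3B1 (chr17:14300831-14301080, plus strand): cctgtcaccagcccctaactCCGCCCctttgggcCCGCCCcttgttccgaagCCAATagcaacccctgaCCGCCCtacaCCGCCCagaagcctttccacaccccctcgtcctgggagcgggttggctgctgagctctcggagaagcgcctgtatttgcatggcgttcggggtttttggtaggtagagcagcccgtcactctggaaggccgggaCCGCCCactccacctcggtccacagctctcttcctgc
CHST15 (chr10:124093599-124093848, minus strand): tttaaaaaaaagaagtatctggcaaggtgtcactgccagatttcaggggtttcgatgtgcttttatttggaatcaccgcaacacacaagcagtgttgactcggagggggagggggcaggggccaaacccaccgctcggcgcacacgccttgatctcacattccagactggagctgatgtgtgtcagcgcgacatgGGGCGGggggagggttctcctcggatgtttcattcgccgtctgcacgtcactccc
A GC box was present in 31 of 44 windows of sulfation genes and in 42.6% of all promoter windows of this length. The first 2 SULF2 windows held none, while SULF2 windows 3 and 4, not shown, held 5 and 1. The windows of CHST3, HS3ST3A1, HS3ST3B1 and CHST15 above held at least 1, but window 3 of CHST3, not shown, held none. A CCAAT box was present in 9 of the 44 windows and in 32% of all windows. The cyclic AMP response element occurred in 2 of the 44 windows, those of HS3ST2 and HS3ST3A1, and in 1.65% of all windows. The ATF4 composite element TGATGCAA was in 0 of the 44 windows and in 0.772% of all windows. A match is a description of the letters and not a measured binding site.

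NDST1, HS2ST1 and HS6ST1, which carry out N-, 2-O- and 6-O-sulfation of heparan sulfate, were lower after rhCYGB, all by less than 2-fold. NDST1, which replaces acetyl groups of glucosamine by sulfate and so starts the modification of the chain, lies on chromosome 5 from 149877341 to 149937773 in the deposited table, which names no human genome build. NDST1 measured 145, 142 and 139 CPM in untreated libraries and 76.8, 75.0 and 88.8 CPM in rhCYGB libraries. The groups did not overlap, as in 79.5% of all genes tested, and the fold change was 1.77 (log2 fold change -0.82, standard error 0.0548), under the 2-fold limit. Its paralog NDST2 measured 28.5, 32.3 and 29.7 CPM untreated and 31.8, 33.9 and 37.1 CPM after rhCYGB. These groups overlapped, and the direction depended on the unit, with a log2 fold change of 0.18 from the counts but -0.15 on log2(FPKM + 1). In FPKM, NDST1 stood at 1.88 ± 0.218 times NDST2 in untreated and 1.06 ± 0.0599 times in rhCYGB libraries (mean ± SD, n = 3 libraries each).

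HS2ST1, the only heparan 2-O-sulfotransferase, measured 64.6, 64.4 and 64.3 CPM untreated and 47.3, 43.0 and 47.5 CPM after rhCYGB. HS6ST1, which adds 6-O sulfate to glucosamine, measured 40.4, 40.1 and 42.1 CPM and then 27.5, 28.6 and 28.5 CPM. In both genes every rhCYGB library lay below every untreated library, by 1.40-fold (standard error 0.0490 on the log2 scale) and 1.45-fold (0.0512). Over all genes tested, 39.7% lay below in this way. HS6ST1 was the only 6-O-sulfotransferase of heparan sulfate above the filter, since HS6ST2 was at 0 and HS6ST3 had at most 6 counts in a library.

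The 3-O-sulfotransferases, which act last and make rare sites for specific ligands, were higher. HS3ST3A1 (chromosome 17, 13397349 to 13505246) had 80, 99 and 91 counts in untreated libraries and 260, 224 and 268 in rhCYGB libraries, or 2.15, 2.21 and 2.23 CPM against 7.0, 6.73 and 7.27 CPM. Its fold change was 3.18 (log2 fold change 1.67, standard error 0.133). HS3ST3B1 (chromosome 17, 14204398 to 14252721) had 24, 35 and 29 counts untreated and 84, 57 and 85 after rhCYGB, a fold change of 2.93 (log2 fold change 1.55, standard error 0.246). The groups did not overlap in either gene, as in 79.5% of all genes tested. The pair share sequence, since 21.2% of the 50-base windows of HS3ST3A1's longest GENCODE transcript also occur in HS3ST3B1, so the counting could have moved reads from one to the other and the separate levels are uncertain. HS3ST3B1 also overlaps MGC12916, which had 33 counts in all libraries together. The other 5 genes of this class, including HS3ST1, known for the antithrombin-binding site, were at 0 counts in all 6 libraries. On log2(FPKM + 1), HS3ST3A1 (0.68) and HS3ST3B1 (0.24) were under the 2-fold limit, and on log2(FPKM + 0.1) HS3ST3B1 (0.93) was.

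SULF2, an extracellular sulfatase that removes 6-O sulfate groups from finished heparan sulfate, had the second largest increase of the 21 genes. SULF2 (chromosome 20, 46286150 to 46415360) had 37, 31 and 20 counts in untreated libraries and 315, 245 and 269 in rhCYGB libraries. In CPM these were 0.993, 0.692 and 0.490 against 8.48, 7.36 and 7.30, a fold change of 10.7 (log2 fold change 3.42, standard error 0.205). On log2(FPKM + 1) SULF2 differed by 1.19, from a mean of 0.156 FPKM untreated. Its close relative SULF1 was at 0 counts in every library. With HS6ST1 lower and SULF2 higher, the FPKM of SULF2 relative to that of HS6ST1 went from 0.0174 ± 0.00663 to 0.296 ± 0.0316 (mean ± SD, n = 3 libraries each).

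The counts of SULF2 also fell on different transcripts in each group. In untreated libraries all 37, 31 and 20 counts were assigned to variant 3 (NM_001161841) and 0 to variant 1. In rhCYGB libraries 314, 245 and 269 counts were assigned to variant 1 (NM_018837) and 1, 0 and 0 to variant 3. Apart from that 1 count, each library had its SULF2 counts on 1 variant. Assignment of a gene's counts to 1 variant also differed between libraries of the same group. For CHST11, all 79 and 65 counts of untreated replicates 1 and 3 were on variant 2, and all 103 counts of untreated replicate 2 were on variant 1. Whether SULF2 changed its transcript cannot be told apart from the assignment here. In the deposited table these variants begin 552 bases apart and share their end, and on the minus strand of GRCh38.p14 the first RefSeq starts of SULF2, shown above, are 531 bases apart. Which of those starts each variant used was not resolved. StringTie estimates the split between variants from reads that most variants share, so it is less certain than the gene's count.

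**Figure D2:**
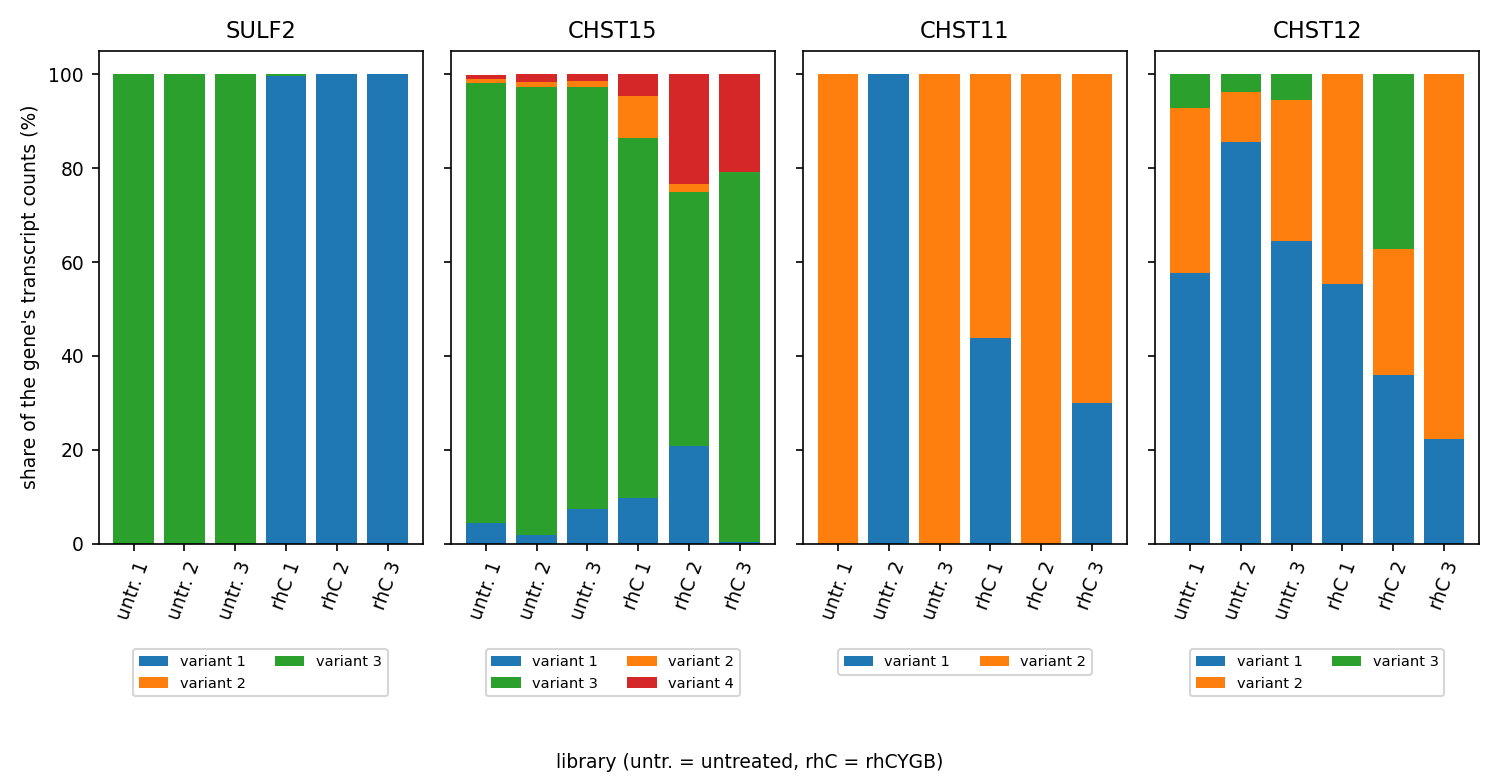
Share (%) of each gene's transcript counts assigned to each RefSeq variant in the 6 libraries, for SULF2, CHST15, CHST11 and CHST12. SULF2 is all variant 3 in untreated libraries and almost all variant 1 in rhCYGB libraries, while CHST11 goes from all variant 2 to all variant 1 among the untreated libraries and the shares in CHST12 differ widely within each group.

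In CHST12, variant 1 held 431, 783 and 582 counts untreated and 270, 157 and 95 after rhCYGB, or 57.7%, 85.5% and 64.5% against 55.3%, 36% and 22.2% of the gene's counts, so that the shares varied widely within each group. In CHST15, variant 3 held 93.0% of the untreated counts and 70.9% of the rhCYGB counts, and variant 4 held 0.881%, 1.7% and 1.39% against 4.73%, 23.3% and 20.7%. In NDST1, variant 2, which begins 10352 bases from variant 1, held 0.516% of the untreated counts and 6.41% of the rhCYGB counts, but 404 of these counts were in the first rhCYGB library against 55 and 94 in the others. In NDST2, variant 1 held 90% of the untreated and 67.7% of the rhCYGB counts, and variant 2 held 4.19% and 16.3%. Its noncoding variants 3 and 4 held 2.55% and 0% untreated and 8.87% and 6.31% after rhCYGB. Noncoding variant 5 went from 3.28% to 0.816%. These shares also varied within each group.

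**Figure D3:**
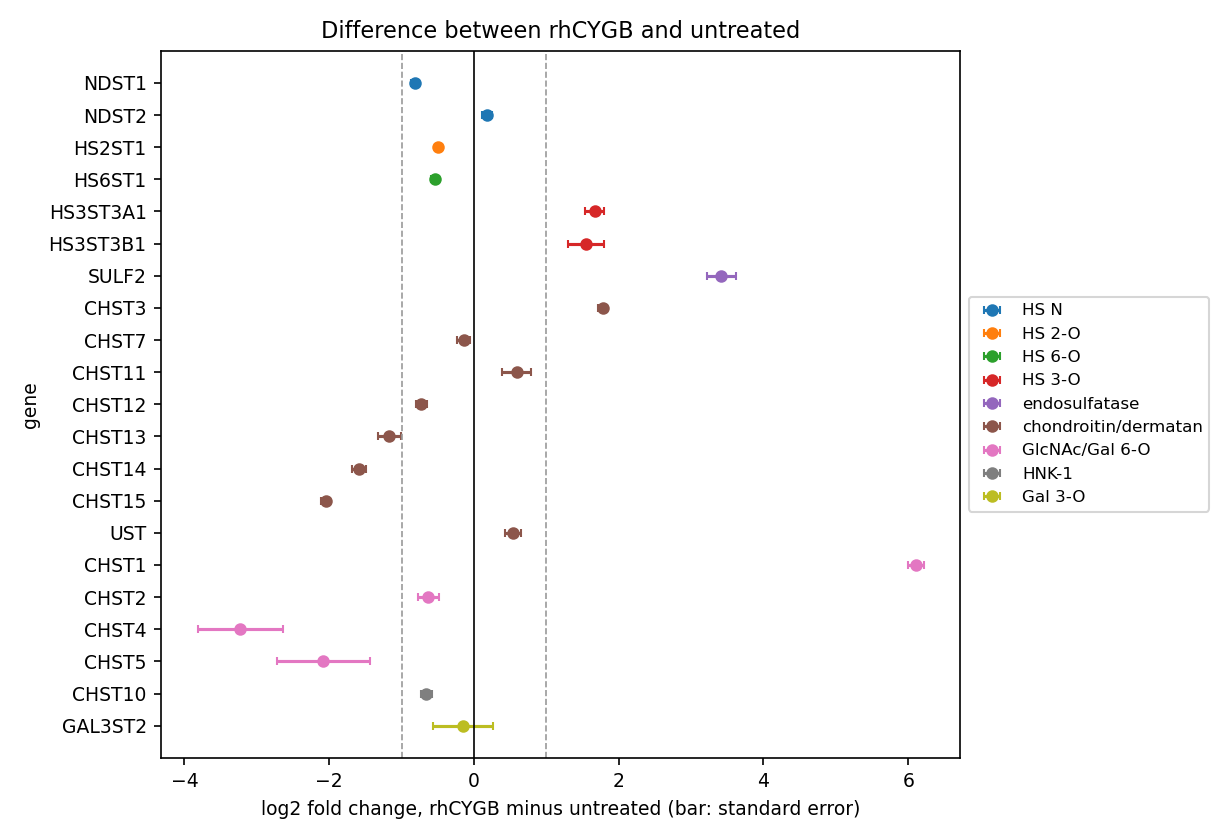
Log2 fold change (rhCYGB minus untreated, bars for standard errors) of the 21 tested genes, coloured by family, with dashed lines at 2-fold. CHST1 lies farthest right at 6.11 and CHST4 farthest left at -3.23.

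Among chondroitin and dermatan sulfate enzymes all 8 genes were tested, of which 1 was called higher and 3 lower, where 12.4% and 14.7% of all genes tested were. CHST3, which adds 6-O sulfate to N-acetylgalactosamine of chondroitin, lies on chromosome 10 from 73724153 to 73773316. It measured 17.9, 18.6 and 19.5 CPM untreated and 60.9, 62.1 and 69.9 CPM after rhCYGB, a fold change of 3.44 (log2 fold change 1.78, standard error 0.0631). CHST7, the other 6-O-sulfotransferase, measured 16.8, 14.6 and 18.5 CPM and then 16.2, 13.9 and 15.3 CPM. Its groups overlapped, with a log2 fold change of -0.14 (standard error 0.0924).

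The 4-O-sulfotransferases of chondroitin differed among themselves. CHST13 measured 5.18, 5.44 and 4.95 CPM untreated and 2.13, 2.71 and 2.12 CPM after rhCYGB, a fold change of 2.25 (log2 fold change -1.17, standard error 0.156). On log2(FPKM + 1) its difference was -0.82, under the 2-fold limit. CHST12 was lower by 1.66-fold, from 20.1, 20.4 and 22.1 CPM to 13.1, 13.1 and 11.6 CPM. CHST11 was higher by 1.5-fold, at 2.12, 2.30 and 1.59 CPM untreated and 2.58, 3.31 and 3.17 CPM after rhCYGB. The groups did not overlap in any of these genes, as in 79.5% of all genes tested. Summed per library, the FPKM of the 6-O genes (CHST3 and CHST7) over that of the 4-O genes (CHST11, CHST12 and CHST13) was 2.22, 1.94 and 2.48 in untreated libraries and 6.55, 5.26 and 6.90 in rhCYGB libraries, 2.82 times higher on average. The table lists CHST12 transcripts of 15957 to 15985 bases, which lowers its FPKM, and without CHST12 the ratio was 2.88 times higher. CHST12 is left out there after its transcript lengths had been seen.

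CHST15 and CHST14 were lower and UST was higher. CHST15, which adds a 6-O sulfate to residues already sulfated at 4-O, lies on chromosome 10 from 125767184 to 125853114. CHST15 had 2610, 3229 and 3095 counts in untreated libraries and 676, 550 and 656 in rhCYGB libraries, or 70.1, 72.0 and 75.9 CPM against 18.2, 16.5 and 17.8 CPM. This was a fold change of 4.15 (log2 fold change -2.05, standard error 0.0560). CHST14, the dermatan 4-O-sulfotransferase on chromosome 15 from 40763160 to 40765357, measured 21.1, 22.0 and 25.3 CPM and then 8.24, 7.57 and 6.92 CPM, a fold change of 3.01 (log2 fold change -1.59, standard error 0.0932). UST, which sulfates uronic acid at 2-O, was higher, at 7.52, 6.56 and 6.74 CPM untreated and 9.10, 11.1 and 10.0 CPM after rhCYGB (1.45-fold, standard error 0.108 on the log2 scale).

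In length-corrected levels, the order of the chondroitin and dermatan genes changed. In untreated libraries CHST15 was highest at 14.2 ± 0.710 FPKM (mean ± SD, n = 3 libraries), followed by CHST14 at 9.67 ± 1.02, CHST7 at 6.46 ± 0.808, CHST13 at 2.52 ± 0.108 and CHST3 at 2.51 ± 0.131 FPKM, the last pair within their spread. In rhCYGB libraries CHST3 was highest at 7.71 ± 0.716 FPKM, followed by CHST7 at 5.24 ± 0.486, CHST15 at 3.22 ± 0.178 and CHST14 at 2.86 ± 0.240 FPKM. Of the heparan genes, NDST1 was highest in untreated libraries at 16.5 ± 0.240 FPKM, and HS2ST1 (9.09 ± 0.0477), HS6ST1 (9.02 ± 0.302) and NDST2 (8.84 ± 0.846) followed within their spread. After rhCYGB, NDST1 (8.34 ± 0.940) and NDST2 (7.85 ± 0.492) lay within their spread of each other.

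**Figure D4:**
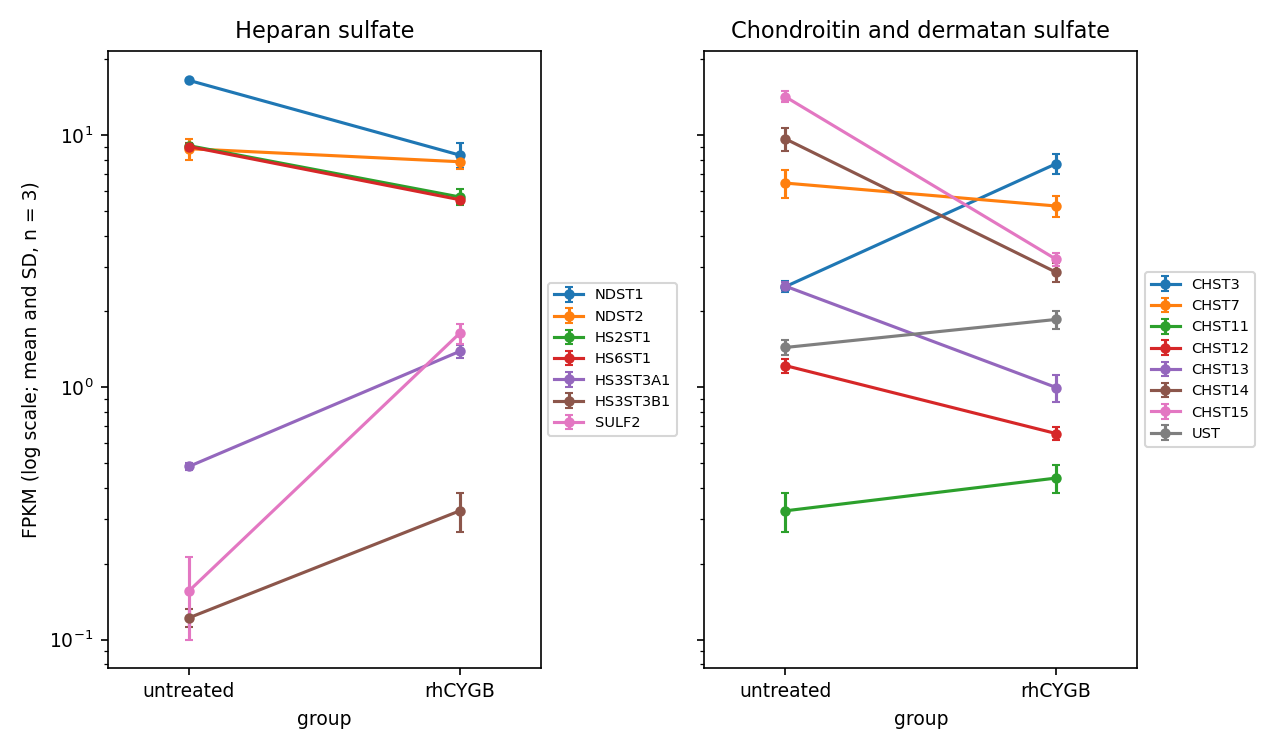
FPKM (log scale, mean and SD of 3 libraries) of the tested heparan sulfate genes (left) and chondroitin and dermatan sulfate genes (right) in untreated and rhCYGB libraries. CHST3 goes from 2.51 to 7.71 FPKM and crosses CHST15, which goes from 14.2 to 3.22 FPKM.

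CHST1 had the largest difference of the 21 genes. It encodes the galactose 6-O-sulfotransferase of keratan sulfate, so this enzyme acts on neither heparan nor chondroitin sulfate in its best known role. CHST1 (chromosome 11, 45669239 to 45687172) had 24, 21 and 25 counts in untreated libraries and 1523, 1247 and 1481 in rhCYGB libraries, or 0.644, 0.469 and 0.613 CPM against 41.0, 37.5 and 40.2 CPM. The fold change was 69.0 (log2 fold change 6.11, standard error 0.107), and 8.42 ± 0.554 FPKM placed CHST1 above CHST3 in rhCYGB libraries, within their spread. On log2(FPKM + 1) CHST1 differed by 3.05, from a mean of 0.134 FPKM untreated. No other gene of the table overlaps it. The related N-acetylglucosamine 6-O-sulfotransferases went the other way. CHST2, which takes part in L-selectin ligand synthesis, measured 5.99, 5.76 and 5.25 CPM untreated and 3.45, 4.36 and 3.20 CPM after rhCYGB (1.55-fold lower, standard error 0.146 on the log2 scale).

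CHST4 and CHST5 rested on few counts and passed the filter through the untreated group. CHST4 had 33, 25 and 31 counts untreated and 0, 4 and 4 after rhCYGB, a log2 fold change of -3.23 (standard error 0.587), which was -2.64 without the first rhCYGB library and -0.36, with no call, on log2(FPKM + 1). CHST5 had 14, 14 and 26 counts untreated and 6, 0 and 5 after rhCYGB, a log2 fold change of -2.08 (standard error 0.647). Without the third untreated library, which held 26 of these counts, CHST5 had a log2 fold change of -1.72 and was no longer called. CHST10, which makes the HNK-1 epitope, measured 19.8, 18.3 and 20.8 CPM and then 12.6, 12.4 and 12.4 CPM, 1.58-fold lower. Its groups did not overlap, as in 79.5% of all genes tested. GAL3ST2, a galactose 3-O-sulfotransferase, had 24, 18 and 14 counts untreated and 15, 19 and 10 after rhCYGB, and its groups overlapped.

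The other genes of the pathway were taken from lists written by role, with 86 genes in all, of which 62 were tested. These lists too were chosen with earlier results of the data known, and many genes named from them were picked by fold change. Their adjusted p-values, taken over all genes tested, therefore describe these 6 libraries and are no separate evidence. Of these 62, 4 were called higher and 17 lower, 33.9% in all against 27.1% of all genes tested. With the adjusted p alone 15 were higher and 34 lower, where 39.0% and 38.6% of all genes tested were. The median log2 fold change of the 62 genes was -0.38. The genes called higher were CSGALNACT1, CSGALNACT2, DSEL and HPSE, of which DSEL is named after its value was seen.

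For the supply of PAPS, 5 of 8 genes fell at the adjusted p and 3 did not pass, where 38.6% of all genes tested fell. Of the 5, 2 were called lower, 25.0% of the list, where 14.7% of all genes tested were called lower. The median log2 fold change of the list was -0.71. PAPSS1, the PAPS synthase with the higher level here, fell from 13.2 to 7.91 FPKM (log2 fold change -0.58, edgeR adjusted p = 3.78e-06), while PAPSS2 was at 0.720 and 0.495 FPKM with no call (adjusted p = 0.118 from edgeR). The Golgi PAPS carrier SLC35B2 fell from 94.9 ± 2.65 to 54.6 ± 5.29 CPM (log2 fold change -0.80, edgeR adjusted p = 6.61e-09). The carrier SLC35B3 fell by 1.01 on the log2 scale, and left the 2-fold limit without the third untreated, first rhCYGB or second rhCYGB library (-0.98, -0.98 and -1.0). BPNT1, which degrades the spent donor, fell from 22.8 ± 0.651 to 7.08 ± 0.610 CPM (log2 fold change -1.69, edgeR adjusted p = 4.15e-11). IMPAD1 of the same list did not pass, at 81.8 ± 0.876 CPM untreated and 77.5 ± 2.45 CPM after rhCYGB (log2 fold change -0.08). It is named after its value was seen.

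Of 6 tested linker genes, 4 fell and 1 rose at the adjusted p, beside 38.6% and 39.0% of all genes tested. XYLT2, which starts the chain on the core protein, fell from 30.3 ± 1.18 to 11.1 ± 0.337 CPM (log2 fold change -1.45, edgeR adjusted p = 1.38e-11). B3GAT3, which finishes the linker, fell from 35.6 ± 2.82 to 13.5 ± 0.554 CPM (log2 fold change -1.40, edgeR adjusted p = 5.59e-11). Of 5 tested heparan chain genes, 4 fell and 1 rose, beside the same shares. The polymerase subunit EXT2 fell by 0.69 and the epimerase GLCE by 0.59 on the log2 scale, while EXT1 rose by 0.31 (edgeR adjusted p = 6.99e-04). EXTL2 was called lower, with a log2 fold change of -1.24.

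In the chondroitin chain list, 3 of 7 tested genes were called higher, where 12.4% of all genes tested were. At the adjusted p 4 rose and 3 fell, beside 39.0% and 38.6% of all genes tested. The median log2 fold change of the list was 0.33. CSGALNACT2, which starts the chondroitin chain on the linker, rose from 21.0 ± 0.822 to 55.5 ± 3.75 CPM (log2 fold change 1.40, edgeR adjusted p = 9.81e-12). CSGALNACT1 had 0, 0 and 4 counts in untreated libraries and 26, 23 and 14 after rhCYGB, and it passed the filter through the rhCYGB group only. Its log2 fold change of 4.05 went to 3.45 without the second untreated library and 7.49 without the third, so its call among the 3 supports no size. The dermatan epimerase DSEL rose from 3.42 ± 0.867 to 7.09 ± 0.669 CPM (log2 fold change 1.05). It was no longer called with upper-quartile factors (0.90), with total counts (0.88), on log2(FPKM + 1) (0.29), on log2(FPKM + 0.1) (0.75), without the third untreated library (0.87) or without the first rhCYGB library (0.98). CHPF and CHPF2, which help to extend the chain, fell by 0.92 and 0.84 on the log2 scale, and CHPF passed 2-fold with upper-quartile factors (-1.06). The other dermatan epimerase of the list, DSE, went opposite to DSEL, from 2.83 ± 0.698 to 1.84 ± 0.192 CPM (log2 fold change -0.61). CHPF, CHPF2 and DSE are named after their values were seen.

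Of 13 tested core protein genes, 6 were called lower, where 14.7% of all genes tested were, and at the adjusted p 8 fell and 2 rose, beside 38.6% and 39.0%. The matrix heparan sulfate proteoglycan perlecan, HSPG2, fell from 66.2 ± 2.39 to 26.0 ± 2.58 CPM (log2 fold change -1.35, edgeR adjusted p = 3.45e-11), and agrin, AGRN, from 180 ± 2.29 to 73.4 ± 3.77 CPM (log2 fold change -1.29, edgeR adjusted p = 4.76e-13). Of 17 tested degradation genes, 1 was called higher and 3 lower, 23.5% in all, where 27.1% of all genes tested were called. Their median log2 fold change was -0.06. SUMF1, which converts a cysteine of sulfatases to the formylglycine they need for activity, fell from 764, 791 and 888 counts to 206, 156 and 170 counts (log2 fold change -2.01, edgeR adjusted p = 1.13e-10), in the same libraries in which SULF2 was higher. The lysosomal sulfatase ARSB, which removes 4-O sulfate groups, fell by 1.45, and the heparanase HPSE rose by 1.21 on the log2 scale from 34, 21 and 18 to 42, 49 and 58 counts. With limma on log2(FPKM + 1), HPSE (0.15) and ARSB (-0.95) were under the 2-fold limit.

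Of the other enzymes that use PAPS, 6 were tested and 3 were called lower, where 14.7% of all genes tested were. At the adjusted p 1 rose and 4 fell, beside 39.0% and 38.6% of all genes tested. The 3 were SULT1A1, SULT1A3 and SULT1A4, cytosolic enzymes that sulfate small molecules. SULT1A1 is named after its value was seen. SULT1A3 and SULT1A4 are near-identical genes and each overlaps a read-through gene, so their separate values are uncertain, and SULT1A3 was no longer called without the first untreated library (log2 fold change -1.05).

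**Figure D5:**
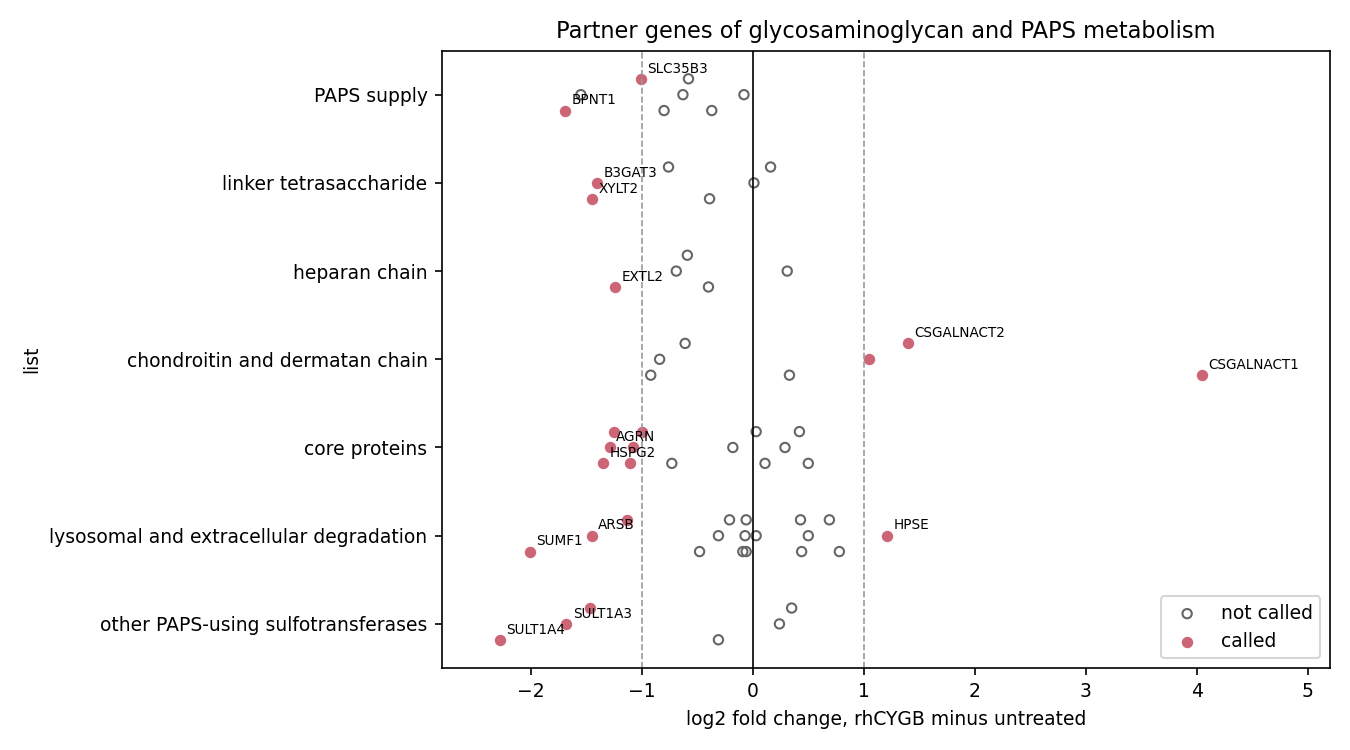
Log2 fold change (rhCYGB minus untreated) of the 62 tested partner genes by list, filled points for called genes, open points for the others, dashed lines at 2-fold. CSGALNACT1, on few counts, lies farthest right at 4.05, and SULT1A4 lies farthest left at -2.28.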

How the data were processed

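RNA-seq data of MIA PaCa-2 cells, 3 untreated and 3 rhCYGB libraries, were used. According to the labels, the authors used a stranded mRNA kit and paired-end reads, and the submitters' processing notes name FastQC 0.11.7, HISAT2 2.1.0 and StringTie 2.1.3b. The read counts per gene and per transcript were deposited by the authors without normalization, and the deposited FPKM were scaled by the authors to transcript length and mapped reads. The notes name the mouse build mm10, while the tables hold human RefSeq genes at positions up to 249231298 on chromosome 1, past the last GRCh38 gene at 248937099, so the deposited positions were not mixed with GRCh38. Whether the counting used strand is not given in the sources used here. The 12 deposited TPM columns were not used.

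Counts of all 6 libraries were filtered with filterByExpr and scaled by TMM in edgeR 4.0.16 (R 4.3.3). Its quasi-likelihood test was applied to the 14728 genes left, which held 99.97% of all counts, and p-values were adjusted by Benjamini-Hochberg. Standard errors were derived from the log2 fold change and its quasi-likelihood F statistic. CPM values use the TMM-scaled library size, and the floor of 3 counts corresponds to 0.0669 to 0.0902 CPM. Intervals and floors cover counting error only. Alternatives were DESeq2 1.42.0, limma 3.58.1 on FPKM (genes with a mean over 0.1 FPKM), other scaling and filters, transcript sums, a replicate block and leaving out each library. On simulated counts of this comparison over 14413 tested genes, with changes of 3-fold and 4-fold mixed, edgeR recovered 187 of 194 changed genes. It also called 7 unchanged genes. Far fewer genes were changed there than the 27.1% called in the data, so the simulation does not test the scaling.

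The sulfation genes and the partner lists were chosen with earlier results of these data known. Named partner genes were the 2 called genes with the highest and the 2 with the lowest log2 fold change of each list, besides PAPSS1, PAPSS2, SLC35B2, EXT1, EXT2, GLCE and SUMF1. Motifs were searched in RefSeq windows, and shared sequence in GENCODE v29 transcripts in windows of 50 bases.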

Additional observations from a re-analysis of the deposited data

How the results depend on the processing

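The number of sulfation genes called was 10 and stayed between 8 and 10 with DESeq2 size factors, upper-quartile factors, total counts, the DESeq2 Wald test, limma on log2(FPKM + 0.1), no filter, at least 10 counts in every library, transcript sums and the replicate block. With limma on log2(FPKM + 1), where HS3ST3A1, HS3ST3B1, CHST4 and CHST13 lost their calls and CHST5 was not tested, 5 sulfation genes (3 higher, 2 lower), 13 partner genes (1 higher) and 1997 of all genes (823 higher, 1174 lower) were called. With limma on log2(FPKM + 0.1), 1 partner gene was higher. With at least 10 counts in every library, 3 sulfation genes were called lower, since CHST4 and CHST5 were not tested. Without the limit on the fold, 19 sulfation genes (8 higher, 11 lower), 49 partner genes (15 higher, 34 lower) and 11427 of all genes (5742 higher, 5685 lower) passed. Leaving out each library gave 9 to 12 sulfation genes (5 to 6 higher, 4 to 6 lower), 19 to 21 partner genes and 3982 to 4101 genes in all.

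Upper-quartile factors and total counts moved the median log2 fold change of all genes to -0.15 and -0.17, and that of the sulfation genes to -0.63 and -0.65, with 3 partner genes called higher in both. The sulfation median was -0.17 with at least 10 counts in every library, -0.31 on log2(FPKM + 1), and -0.52 to -0.40 with a library left out. The direction of NDST2 reversed with limma on log2(FPKM + 1) (-0.15) and log2(FPKM + 0.1) (-0.17), and that of GAL3ST2 without untreated replicate 1 (0.14) and without rhCYGB replicate 3 (0.08), in a range of -0.44 to 0.14 over the libraries left out. Deviations of same-numbered libraries correlated at -0.05, 0.01 and 0.01. These values show no shared deviation, but they cannot tell whether the cultures were paired. With the replicate block 10 sulfation genes were called. Depth limits CHST4, CHST5, GAL3ST2 and CSGALNACT1, with at most 33 counts in a library. The untreated libraries also held few counts of SULF2 (20 to 37), CHST1 (21 to 25) and HS3ST3B1 (24 to 35), which limits the size of their fold changes.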
